A study of Mus musculus with 18 samples.

Results

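Cells of a Dync2h1 knockout line were compared with cells of an Ift140 knockout line after both had been exposed to fluid flow. The comparison uses the 6 libraries labelled as flow libraries of these lines, 3 of each, out of 18 in the series. The cells are IMCD3, a mouse kidney line derived from inner medullary collecting duct, with the strain background Tg(SV40E)bri/7 and at passage 10 to 15 per the labels. Both groups were kept for 3 h in microslide chambers at a shear stress of 0.7 dyne/cm2, and total RNA was sequenced. The other 12 libraries are static cultures of both knockout lines and static and flow cultures of wild-type IMCD3 cells, 3 of each. They enter the estimate of the spread and are given beside the results as values. The static libraries of the knockout lines also enter a static comparison and a test of whether differences changed with flow. The labels do not say how many clones stand for a knockout or whether the replicates were separate cultures, so p-values measure the spread between these samples only. Each knockout is 1 line here, and what a line carries besides its knockout cannot be told apart from the knockout itself.

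The primary cilium is a single projection of kidney tubule cells that receives chemical and mechanical signals. Proteins travel along it by intraflagellar transport, outward with kinesin-2 and the IFT-B complex, and back to the cell body with the motor dynein-2 and the IFT-A complex. Dync2h1 encodes the heavy chain that drives dynein-2, and Ift140 encodes a core subunit of IFT-A, which also takes part in the entry of membrane proteins into the cilium. Both genes thus belong to retrograde transport, one to the motor and the other to its cargo adaptor, and mutations in either cause skeletal ciliopathies that can involve the kidney. The comparison asks in which genes cells that lack the motor subunit differ from cells that lack the adaptor subunit while under flow.

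Values are TPM (transcript abundances corrected for gene length and scaled to 1 fixed sum per library) after a rescaling of the libraries, called scaled TPM below. Differences are Dync2h1 knockout minus Ift140 knockout on the log2(scaled TPM + 1) scale, which understates changes of genes near 0. They come from limma, with Benjamini-Hochberg adjustment over the 15087 genes that reached 1 TPM in at least 3 of the 6 libraries. A gene passed at an adjusted p under 0.05.

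The targeted genes were read first, as a check of the labels. Dync2h1 (GRCm38, chromosome 9, 6928503 to 7184446) stood at 7.15, 10.1 and 10.8 scaled TPM in the Dync2h1 knockout libraries under flow and at 22.7, 28.96 and 39.2 in the Ift140 knockout libraries, and the groups did not overlap. The wild-type flow libraries held 35.4, 28.3 and 31.4. The difference was -1.58 (SE 0.20, adjusted p = 2.2e-05). Ift140 (GRCm38, chromosome 17, 25016085 to 25099495) stood at 7.61, 8.66 and 14.3 scaled TPM in the libraries labelled Ift140 knockout flow 1, 2 and 3, at 19.8, 17.4 and 14.4 in the Dync2h1 knockout and at 16.4, 15.2 and 18.8 in wild-type flow. In the library labelled Ift140 knockout flow 3, Ift140 was thus close to the lowest Dync2h1 knockout and wild-type values and goes against its label, while the other two stood lower. The Ift140 difference was 0.74 (SE 0.18, adjusted p = 0.0047) with that library and 0.99 (adjusted p = 0.00013) without it. It did not pass with the deposited scaling (adjusted p = 0.084) or with only the 6 libraries in the fit (adjusted p = 0.068). Transcript of the targeted gene remained in both lines, so these levels do not measure the loss of protein.

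The library labelled Ift140 knockout flow 3 stood apart in other measures too. It held 16076 genes at 1 TPM or more against 14705 to 15001 in the other 5 knockout flow libraries. Its correlation with the other Ift140 knockout flow libraries was 0.957 and 0.963, against 0.979 between those and 0.983 to 0.985 among the Dync2h1 knockout flow libraries. Its median deviation from the mean of the other two went from -0.28 on the log2 scale among the shortest genes (first quartile of genomic span) to 0.10 among the longest (last quartile). Results below use all 6 libraries, and values without it are given beside many of them. Of the 156 genes named by rule, 154 also passed without it in the same direction, the exceptions being the small RNA genes Snord33 (adjusted p = 0.097) and Mir5117 (adjusted p = 0.072). Most of these genes were chosen by size or p in the fit that includes this library, so a high share is built in. Of all 5346 genes that passed with it, 74.6% passed again in the same direction.

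Epithelial genes were present in all 6 libraries. The keratin gene Krt8 had the highest mean level of the epithelial list, and all but 4 of its 38 members reached 1 TPM in at least 1 library. Of 30 collecting duct markers only 11 were expressed highly enough to be tested. Kcnj1, Slc14a2, Hoxd10, Emx1 and Calb1 were at 0 in all 6 libraries, and the water channel genes Aqp2, Aqp3 and Aqp4 and the sodium channel genes Scnn1a, Scnn1b and Scnn1g were among those not tested. Most of these markers were thus under the level at which genes were tested in both lines. The tissue of origin is given by the labels, and these markers do not establish it.

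Of the 15087 genes, 3194 were higher and 2152 were lower in the Dync2h1 knockout under flow, so 35.4% of the genes passed, 21.2% as higher and 14.3% as lower. At least 2-fold differences were fewer, with 539 genes higher (3.57%) and 397 lower (2.63%), or 6.2% of the genes tested. The spread behind these calls was estimated over all 18 libraries. With only the 6 knockout flow libraries in the fit, 1524 genes were higher and 1096 lower. Without the library labelled Ift140 knockout flow 3, 2446 genes were higher (16.2%) and 2093 lower (13.9%), or 30.1% in all. Of the 5346 genes that passed with it, 3989 (74.6%) passed again in the same direction, and of the 936 that differed at least 2-fold, 845 (90.3%) did. The split into higher and lower depended on the scaling. With TPM as deposited, 1574 genes were higher and 3388 lower, the share of higher genes among those that passed moving from 59.7% to 31.7%, since the median difference of all genes moved by -0.19, from 0.07 to -0.13. Differences smaller than this shift are therefore relative to the scaling, and the text turns on larger ones. In bulk RNA, fewer cells of a type and less RNA per cell cannot be told apart.

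Of the named genes that were higher, Serpinh1 (GRCm38, chromosome 7, 99345376 to 99353239) had the largest difference. It encodes HSP47, the collagen chaperone of the endoplasmic reticulum. The transcript stood at 0.546, 0.285 and 0.464 scaled TPM in the Ift140 knockout under flow and at 87.02, 87.6 and 88.4 in the Dync2h1 knockout. Wild-type flow libraries held 145, 146 and 151, so the Ift140 knockout libraries are the ones in which the transcript was nearly missing. The difference was 5.96 (SE 0.08, adjusted p = 5.0e-17), and 5.78 in static culture.

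Ccl2, which encodes a chemokine that attracts monocytes, followed among the protein-coding genes. It stood at 2.24, 2.599 and 0.803 scaled TPM in the Ift140 knockout and at 66.2, 43.6 and 52.3 in the Dync2h1 knockout. The wild-type flow libraries lay between the lines at 27.4, 19.1 and 17.8. The difference was 4.30 (SE 0.24, adjusted p = 3.5e-09), and 3.99 without the library labelled Ift140 knockout flow 3. Nqo1, a quinone reductase of the NRF2 antioxidant response, read 3.44, 4.39 and 2.07 scaled TPM against 48.6, 49.95 and 65.3, with wild-type flow at 43.4, 47.8 and 40.1. Its difference was 3.72 (SE 0.24, adjusted p = 1.6e-08), whereas only 6 of 23 tested NRF2 target genes were higher and 4 were lower, with a median of 0.14 beside 0.07 over all genes. Asph, an aspartate hydroxylase of the endoplasmic reticulum, was at 2.34, 2.25 and 1.13 against 23.2, 27.2 and 32.1 scaled TPM, with wild-type flow at 45.7, 39.95 and 36.5, a difference of 3.31 (SE 0.16, adjusted p = 6.4e-10). The low values of Serpinh1, Nqo1 and Asph were thus those of the Ift140 knockout, and the wild-type levels were on the side of the Dync2h1 knockout.

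For Areg and Rasef the high values were those of the Dync2h1 knockout. Areg, which encodes the EGF receptor ligand amphiregulin, read 7.06, 10.4 and 7.89 scaled TPM in the Ift140 knockout, 86.3, 81.95 and 88.2 in the Dync2h1 knockout and 16.2, 13.8 and 10.9 in wild-type flow, a difference of 3.21 (SE 0.21, adjusted p = 1.8e-08). Rasef, a Rab-related GTPase gene, was at 0, 0 and 0.00828 against 6.398, 4.99 and 7.51 scaled TPM, and wild-type flow held 0.00984, 0.01996 and 0.171. Its difference was 2.85 (SE 0.14, adjusted p = 9.9e-10). Nipal2, a gene of a family of magnesium transporters, was near 0 in the Ift140 knockout (0, 0.497 and 0) and reached 7.41, 10.7 and 6.41 scaled TPM in the Dync2h1 knockout. Wild-type flow held more Nipal2 than the Ift140 knockout, at 4.32, 7.19 and 5.13.

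Basement membrane collagen genes were among the largest differences in the other direction, with Col4a1 the largest of the named genes. Col4a1 (GRCm38, chromosome 8, 11198423 to 11312826) stood at 125, 114 and 127 scaled TPM in the Ift140 knockout, at 0.659, 0.182 and 0.7196 in the Dync2h1 knockout and at 63.1, 49.3 and 53.2 in wild-type flow. Col4a2 (GRCm38, chromosome 8, 11312805 to 11449287), which lies head to head with Col4a1 and encodes the chain that assembles with its product, stood at 70.7, 74.2 and 80.2 in the Ift140 knockout, at 0.205, 0.1396 and 1.21 in the Dync2h1 knockout and at 42.9, 42.5 and 40.5 in wild-type flow. Both transcripts were thus nearly missing from the Dync2h1 knockout, and in the Ift140 knockout every library lay above every wild-type flow library. The differences were -6.36 (SE 0.17, adjusted p = 3.5e-13) for Col4a1 and -5.71 (SE 0.20, adjusted p = 1.2e-11) for Col4a2. Nid2, the gene of nidogen-2, which links laminin and collagen IV, followed with 45.1, 47.7 and 53.7 against 2.44, 1.89 and 2.86 scaled TPM, wild-type flow at 29.8, 27.8 and 26.8 and a difference of -3.88 (SE 0.12, adjusted p = 1.5e-12).

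Vimentin and smooth muscle actin were also far lower in the Dync2h1 knockout. Vim, the gene of the main intermediate filament of mesenchymal cells, stood at 237, 235 and 176 scaled TPM in the Ift140 knockout and at 5.41, 5.11 and 3.96 in the Dync2h1 knockout, with 323, 347 and 344 in wild-type flow. The difference was -5.21 (SE 0.13, adjusted p = 1.5e-13). Acta2, the gene of smooth muscle actin, read 18.7, 17.9 and 15.7 against 0.545, 0.397 and 0, with 15.9, 19.1 and 20.5 in wild-type flow, and differed by -3.83 (SE 0.19, adjusted p = 9.9e-10). In both genes the Dync2h1 knockout libraries were the low ones and the other 6 flow libraries were far above them.

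Several secreted, surface and metabolic genes were also far lower in the Dync2h1 knockout. Igfbp2, which encodes a secreted binding protein of insulin-like growth factors, read 92.3, 78.05 and 62.8 scaled TPM against 0.443, 0 and 0.155, with 60.2, 63.9 and 61.8 in wild-type flow, and differed by -6.04 (SE 0.16, adjusted p = 2.4e-13). Lrp2, the gene of the endocytic receptor megalin, read 74.96, 64.3 and 103 against 2.73, 3.54 and 3.11 with a difference of -4.29 (SE 0.15, adjusted p = 1.1e-11), and the wild-type flow libraries lay between the lines at 20.6, 14.8 and 18.4. Its adaptor gene Dab2 was also lower, at 19.99, 21.4 and 37.4 against 4.91, 5.24 and 6.17 scaled TPM, a difference of -2.03 (SE 0.19, adjusted p = 1.0e-06). The mitochondrial aldehyde dehydrogenase gene Aldh2 (-4.10), the aminopeptidase gene Enpep (-3.87), the adhesion receptor gene Adgra2 (-3.76), the kinase gene Camk1 (-3.74), the matrix gene Fras1 (-3.67) and the stanniocalcin gene Stc2 (-3.62) completed the protein-coding genes among the 15 largest. All of these passed with and without the library labelled Ift140 knockout flow 3. The microRNA genes Mir3083 and Mir1843b also met the rule. Mir3083 spread widely within the Ift140 knockout, at 87.6, 1379 and 105 scaled TPM against 0, 7.44 and 6.26, and Mir1843b read 39.7, 50.8 and 30.6 against 0, 0 and 12.5. Neither passed in static culture.

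**Figure D1:**
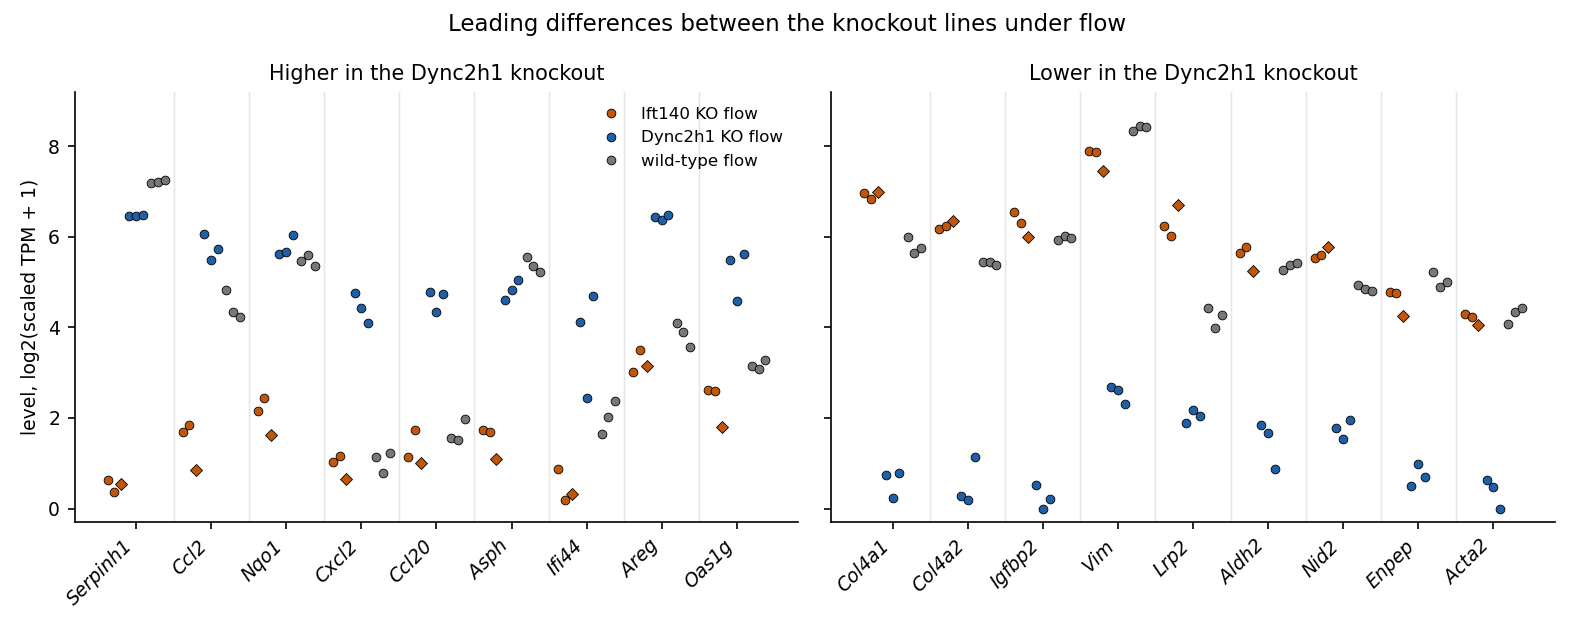
Levels of 18 of the named genes with the largest flow differences, as log2(scaled TPM + 1), with 1 point per library for the Ift140 knockout (orange), the Dync2h1 knockout (blue) and wild type (grey) under flow. The diamond is the library labelled Ift140 knockout flow 3. Serpinh1 is near 0 in all 3 Ift140 knockout libraries, and Col4a1, Col4a2, Igfbp2, Vim and Acta2 are low in all 3 Dync2h1 knockout libraries.

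Gene groups were described by lists of pathway members and markers. Over all genes 21.2% were higher and 14.3% lower under flow, and no list was tested against these shares. Interferon-stimulated genes are switched on by interferon or by sensors of foreign nucleic acid, through STAT and IRF factors that bind the interferon-stimulated response element. Of 30 tested members of the interferon and antigen presentation list, 25 were higher in the Dync2h1 knockout under flow, 1 was lower (Tapbp) and 4 did not pass, among them Ifit2, Ifit3 and Stat2. The median difference was 1.39, beside 0.07 over all genes and a background of 21.2% of genes higher. The same number, 25, was higher without the library labelled Ift140 knockout flow 3, and 24 with the deposited scaling. Of the 30, 9 lie on chromosomes 1, 6 and 17, where differences ran lower in general.

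Rsad2, the gene of the antiviral enzyme viperin, stood at 0.298, 1.32 and 0.0497 scaled TPM in the Ift140 knockout and at 11.7, 6.76 and 10.1 in the Dync2h1 knockout, with 0.856, 1.84 and 2.07 in wild-type flow, a difference of 2.81 (SE 0.28, adjusted p = 2.3e-06). Oas1g, a gene of the oligoadenylate synthetases that activate RNase L, read 5.18, 5.09 and 2.47 against 43.7, 22.9 and 48.6, with wild-type flow at 7.87, 7.41 and 8.79, and differed by 2.89 (SE 0.26, adjusted p = 7.6e-07). Its sequence resembles that of other Oas1 genes, so reads may have been divided among them. Ifit1, the gene of a protein that binds foreign RNA ends, read 0.387, 0.412 and 0.207 against 4.09, 2.98 and 4.28 and differed by 1.83 (SE 0.15, adjusted p = 2.4e-07). Ifi44, another interferon-stimulated gene, had a wide spread within the Dync2h1 knockout (16.3, 4.44 and 24.7 scaled TPM). The Ift140 knockout held 0.844, 0.137 and 0.2402, and Ifi44 differed by 3.29 (SE 0.44, adjusted p = 3.7e-05).

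The RNA sensor gene Ddx58, which encodes RIG-I, was higher by 1.42 (SE 0.16, adjusted p = 6.0e-06), at 13.9, 12.6 and 10.3 against 38.5, 27.3 and 38.3 scaled TPM. The class I gene H2-T23 was higher by 1.45 (SE 0.15, adjusted p = 2.6e-06), at 27.2, 34.6 and 22.8 against 82.8, 67.3 and 83.8. In wild-type flow Ddx58 was at 23.4, 24.7 and 33.2, reaching into the Dync2h1 knockout range, and H2-T23 was at 32.9, 24.8 and 26.2, within the Ift140 knockout range. Other members that were higher include the regulators Irf7 and Irf9, the transporter gene Tap1, the immunoproteasome genes Psmb8 and Psmb9 and the class I light chain gene B2m. In static culture, where 11.3% of all genes were higher and 11.7% lower, 19 of the 30 members were higher in the Dync2h1 knockout and 1 was lower, with a median of 0.95.

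Promoter stretches of 3 of these genes are printed because they hold the element that the list is known for. Sequences are from RefSeq on GRCm38.p6, run 5′ to 3′ on the strand of the gene, end at or before the base in front of the annotated start and leave out bases in annotated exons. Capitals mark matches on either strand to the core of the element, taken as GAAA, 2 bases of any kind and GAAA again, and overlapping matches run together. The stretches are chr12:26456453-26456602, minus strand, for Rsad2, chr5:120887614-120887763, minus strand, for Oas1g, and chr19:34640744-34640870, plus strand, for Ifit1.
Rsad2: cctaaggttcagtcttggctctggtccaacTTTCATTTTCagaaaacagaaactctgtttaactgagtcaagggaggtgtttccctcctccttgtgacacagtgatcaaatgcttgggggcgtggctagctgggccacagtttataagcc
Oas1g: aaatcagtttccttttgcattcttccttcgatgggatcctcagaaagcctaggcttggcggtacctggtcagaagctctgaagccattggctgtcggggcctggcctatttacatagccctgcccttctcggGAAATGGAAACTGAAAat
Ifit1: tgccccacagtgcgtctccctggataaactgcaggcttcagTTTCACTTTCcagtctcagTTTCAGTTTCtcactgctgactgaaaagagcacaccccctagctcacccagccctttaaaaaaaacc
The match begins 120 bases before the start in Rsad2, and the pairs of matches begin 18 and 12 bases before it in Oas1g and 104 and 85 bases before it in Ifit1. Over the 250 bases before the start, 2.98% of all 32851 RefSeq promoters held this motif. With each gene taken once, as in the list counts, 3.46% of 27025 genes held it. Of 26 list members that were tested and have a promoter entry, 11 held it, and of the 22 of these that were higher in the Dync2h1 knockout, 9 did. A match describes the letters only.

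NF-kB factors switch on chemokine and feedback genes, among them Nfkbia, whose product holds NF-kB in the cytoplasm and so closes the loop. Of 20 tested members of the NF-kB and inflammatory list, 15 were higher in the Dync2h1 knockout, 2 were lower (Nfkbiz and Cxcl5) and 3 did not pass (Nfkbie, Csf1 and Bcl3). The median was 1.04, beside 0.07 over all genes. Without the library labelled Ift140 knockout flow 3, and with the deposited scaling, 14 were higher and 2 lower. Ligands led the list. Cxcl2, a neutrophil chemokine gene, stood at 1.03, 1.25 and 0.572 scaled TPM in the Ift140 knockout and at 26.2, 20.4 and 16.2 in the Dync2h1 knockout, with 1.19, 0.719 and 1.35 in wild-type flow. The difference was 3.48 (SE 0.20, adjusted p = 3.7e-09). Ccl20, whose product attracts CCR6-positive lymphocytes, read 1.201, 2.31 and 1.002 against 26.3, 19.3 and 25.8, with 1.95, 1.87 and 2.96 in wild-type flow, and differed by 3.33 (SE 0.21, adjusted p = 1.3e-08). For both genes the Ift140 knockout and wild-type flow libraries covered a similar low range, and the 3 Dync2h1 knockout libraries lay above all of them.

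Cxcl16, the gene of a membrane-bound chemokine, read 35.7, 37.5 and 34.7 scaled TPM against 138, 129 and 119, with 55.9, 56.9 and 52.2 in wild-type flow, a difference of 1.81 (SE 0.07, adjusted p = 4.8e-11). Nfkbia read 30.1, 26.6 and 20.5 against 104, 78.9 and 78.96, with 23.8, 27.8 and 31.3 in wild-type flow, and differed by 1.73 (SE 0.16, adjusted p = 6.6e-07). The further feedback and subunit genes Tnfaip3, Relb, Nfkb1, Nfkb2 and Birc3 were also higher, as was the adhesion receptor gene Vcam1. Il6, Il1a, Icam1, Tnf and Ccl7 were not expressed highly enough to be tested.

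Promoter stretches of 3 NF-kB target genes, taken in the same way, carry a form of the NF-kB site in capitals, taken as GGG, 2 bases of any kind and TTTCC, on either strand. They are chr5:90903749-90903870, plus strand, for Cxcl2, chr1:83116616-83116765, plus strand, for Ccl20, and chr12:55492648-55492797, minus strand, for Nfkbia.
Cxcl2: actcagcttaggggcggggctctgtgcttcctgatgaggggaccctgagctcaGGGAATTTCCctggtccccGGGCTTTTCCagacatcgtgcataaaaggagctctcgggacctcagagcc
Ccl20: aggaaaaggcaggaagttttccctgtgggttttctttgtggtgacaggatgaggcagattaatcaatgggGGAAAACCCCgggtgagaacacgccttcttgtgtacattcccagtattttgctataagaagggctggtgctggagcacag
Nfkbia: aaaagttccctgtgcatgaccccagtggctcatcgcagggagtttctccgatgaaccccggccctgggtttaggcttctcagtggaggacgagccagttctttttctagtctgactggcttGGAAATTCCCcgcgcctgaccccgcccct
The matches begin 97 and 78 bases before the start in Cxcl2, 80 bases before it in Ccl20 and 29 bases before it in Nfkbia. This motif was in 1.41% of all promoters over 250 bases and, with each gene taken once, in 1.65% of genes. It was in 7 of the 13 tested list members with a promoter entry, and in 6 of the 10 of these that were higher. Ccl2 and Cxcl16 had no entry.

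**Figure D2:**
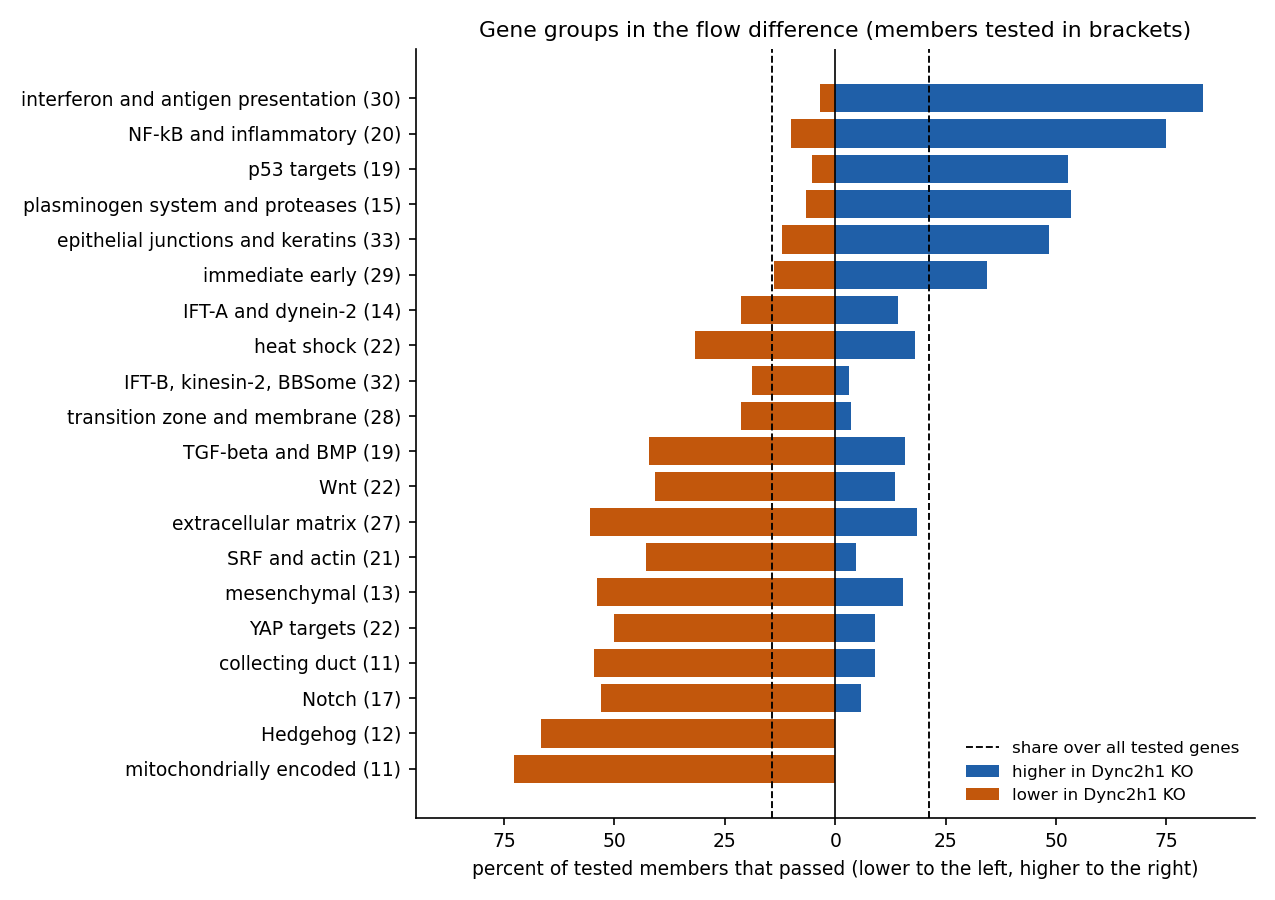
Share of the tested members of 20 lists that passed as higher (blue, to the right) or lower (orange, to the left) in the Dync2h1 knockout under flow, with the number tested in brackets. Dashed lines give the shares over all 15087 genes, 21.2% higher and 14.3% lower. The interferon and NF-kB lists lean furthest to the right, and the Hedgehog and mitochondrially encoded lists have no higher member.

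EGF receptor signalling, which runs through ERK, differed by member. Of the 9 tested genes of EGF receptors, ligands and feedback 4 were higher and 1 was lower, or 3 and 3 with the deposited scaling. The ligand genes Areg (above) and Btc (3.41, 2.36 and 2.34 against 6.67, 5.68 and 7.14 scaled TPM, difference 1.03, SE 0.19, adjusted p = 0.00071) and the receptor gene Erbb3 (39.9, 38.99 and 36.7 against 63.02, 74.7 and 71.7, difference 0.84, SE 0.08, adjusted p = 1.6e-06) were higher, and the neuregulin gene Nrg1 was lower with a difference of -0.98 (SE 0.11, adjusted p = 1.1e-05). The promoter of Areg (chr5:91139449-91139598, plus strand) holds the palindrome TGACGTCA, the cyclic AMP response element, 61 bases before the start, shown in capitals.
Areg: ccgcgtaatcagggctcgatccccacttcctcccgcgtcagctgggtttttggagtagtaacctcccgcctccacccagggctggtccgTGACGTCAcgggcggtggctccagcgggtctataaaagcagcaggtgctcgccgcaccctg
This element was in 1.55% of all promoters over 250 bases. Among 19 ERK target genes 5 were higher and 5 lower, with a median of 0.10. Ccnd1, the gene of cyclin D1, was higher at 35.4, 36.1 and 30.8 against 106, 100.4 and 99.9 scaled TPM, with 19.4, 19.6 and 20.7 in wild-type flow, a difference of 1.56 (SE 0.08, adjusted p = 6.4e-10). The ERK inhibitor genes of the Sprouty family went apart, with Spry2 higher by 1.01 (SE 0.14, adjusted p = 4.8e-05) and Spry1 lower with a difference of -0.67 (SE 0.09, adjusted p = 5.2e-05).

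The plasminogen system releases plasmin to cut matrix at the cell surface. Of 15 tested genes of this system and of other surface proteases 8 were higher and 1 was lower (Timp2), with a median of 0.71, and 8 and 1 without the library labelled Ift140 knockout flow 3. Plau, the gene of the urokinase activator, read 142, 160.2 and 117 scaled TPM against 409, 349.6 and 392 and differed by 1.46 (SE 0.12, adjusted p = 1.8e-07). Its receptor gene Plaur and the tissue activator gene Plat were higher as well. The serine protease genes Tmprss2 (difference 1.61, SE 0.13, adjusted p = 1.9e-07) and St14 (difference 0.85, SE 0.11, adjusted p = 3.9e-05) followed.

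Junction genes were more often higher and mesenchymal genes more often lower in the Dync2h1 knockout. Of 33 tested epithelial genes 16 were higher and 4 lower, with a median of 0.23, and with the deposited scaling 11 were higher and 8 lower with a median of 0.02. Esrp1, an epithelial splicing regulator gene, read 20.7, 17.2 and 22.6 scaled TPM against 49.2, 50.9 and 53.3, with 25.3, 24.2 and 28.7 in wild-type flow, a difference of 1.31 (SE 0.11, adjusted p = 2.1e-07). The occludin gene Ocln (38.03, 35.7 and 32.6 against 77.8, 75.3 and 70.5) was higher by 1.05 (SE 0.10, adjusted p = 1.4e-06), the cingulin gene Cgn by 0.79 (SE 0.07, adjusted p = 5.1e-07) and the kidney cadherin gene Cdh16 by 0.85 (SE 0.07, adjusted p = 3.1e-07). Cdh1, Epcam, Cldn4, Cldn7, Tjp3 and Grhl2 were higher too, while Krt8, Krt18 and Krt19 did not pass. Lower were Cdh2, Cdh6, Cldn1 and Krt20.

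Of 13 tested mesenchymal genes 7 were lower, 2 were higher and 4 did not pass, or 6 and 1 without the library labelled Ift140 knockout flow 3. Zeb1, a repressor of Cdh1, read 5.34, 8.09 and 5.38 scaled TPM against 0.114, 0.515 and 0.786, with 8.73, 6.98 and 7.39 in wild-type flow, and was lower with a difference of -2.31 (SE 0.21, adjusted p = 8.3e-07). Twist2 was lower with a difference of -2.07 (SE 0.14, adjusted p = 2.3e-08), at 9.59, 11.4 and 11.6 against 1.45, 2.11 and 1.96, and Zeb2, Fn1, Axl and Cdh2 were lower with Vim. S100a4, often read as a mesenchymal gene, was higher, at 10.3, 9.53 and 9.79 against 30.9, 25.3 and 25.7, by 1.38 (SE 0.10, adjusted p = 5.2e-08), as was Lgals1. The polarised sorting genes Ap1m2 (15.8, 11.9 and 12.996 against 71.3, 75.4 and 70.6 scaled TPM, difference 2.34, SE 0.12, adjusted p = 1.2e-09) and Rab25 (7.92, 6.39 and 11.6 against 48.9, 52.6 and 50.9, difference 2.46, SE 0.20, adjusted p = 2.1e-07), which serve the basolateral and apical recycling routes of epithelia, were higher in the Dync2h1 knockout. Ap1m2 was listed at 0 in all 3 wild-type flow libraries, while Rab25 stood there at 7.04, 10.1 and 10.9.

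Matrix genes were more often lower. Of 27 tested genes 15 were lower and 5 higher, with a median of -0.64, and 16 and 6 without the library labelled Ift140 knockout flow 3. Beside Col4a1, Col4a2 and Nid2, the lower genes were Col4a4, Col6a1, Col6a2, Col12a1, Lama1, Lamc1, Hspg2, Fn1, Sparc, Tnc, Thbs1 and Spp1. The higher genes included the laminin chain genes Lama3, Lamb3 and Lamb2 and the collagen chaperone gene Serpinh1. The chaperone and the collagen IV chains thus stood at opposite ends of the comparison, each nearly missing from a different line.

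Actin genes under SRF, the factor that responds to the pool of free actin, were more often lower than higher. Of 21 tested, 9 were lower, 1 (Tpm2) was higher and 11 did not pass, with a median of -0.25, and without the library labelled Ift140 knockout flow 3 13 were lower and 1 higher. Tagln, the gene of transgelin, read 18.6, 13.6 and 11.8 scaled TPM against 1.27, 1.05 and 1.295 and differed by -2.81 (SE 0.18, adjusted p = 1.5e-08). Srf itself was lower with a difference of -0.88 (SE 0.09, adjusted p = 2.7e-06). The focal adhesion gene Zyx read 74.5, 69.98 and 108 against 35.8, 40.5 and 37.4, the highest value being that of the library labelled Ift140 knockout flow 3, and differed by -1.11 (SE 0.14, adjusted p = 2.8e-05). Of 22 tested target genes of YAP, the factor that answers to cell spreading, 11 were lower and 2 were higher, with a median of -0.30. Crim1 (difference -1.205, SE 0.08, adjusted p = 3.1e-08), Dlc1 (difference -1.06, SE 0.11, adjusted p = 2.7e-06) and Amotl1 (difference -0.64, SE 0.07, adjusted p = 1.0e-05) were lower, and the tissue factor gene F3 was higher by 0.84 (SE 0.09, adjusted p = 4.0e-06). Of the YAP target genes most used as readouts, Ctgf passed at 0.31 (adjusted p = 0.031, and 0.60 with the deposited scaling) and Cyr61 read -0.22 (adjusted p = 0.12).

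Pathways that signal through or near the cilium followed. In Hedgehog signalling the transducer Smo enters the cilium, where GLI factors are processed. Of 12 tested genes 8 were lower in the Dync2h1 knockout and 0 were higher, with a median of -0.54, and 7 were lower without the library labelled Ift140 knockout flow 3. Ligands and the target genes Gli1 and Hhip were not expressed highly enough to be tested, and Ptch1 did not pass. Among co-receptors, Gas1 read 2.403, 2.102 and 2.66 scaled TPM against 0.0114, 0.0751 and 0.0332 (difference -1.70, SE 0.14, adjusted p = 2.0e-07) and Cdon 18.5, 17.3 and 23.5 against 6.13, 6.51 and 7.48 (difference -1.42, SE 0.12, adjusted p = 3.4e-07). Smo read 116, 113 and 95.5 against 63.3, 67.4 and 59.04, with 113, 121 and 117 in wild-type flow, a difference of -0.76 (SE 0.08, adjusted p = 3.7e-06), and Evc, which acts beside Smo at the base of the cilium, was lower with a difference of -0.88 (SE 0.10, adjusted p = 5.9e-06). Of the 8 lower genes 3, among them Smo, lie on chromosomes 1, 6 and 17.

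Of 17 tested Notch genes 9 were lower and 1 was higher, with a median of -0.43. The ligand genes differed in opposite directions, with Jag1 lower at 200.1, 191 and 234 against 45.1, 49.6 and 56.04 scaled TPM (difference -2.03, SE 0.12, adjusted p = 5.6e-09) and Jag2 higher at 22.98, 24.4 and 16.6 against 45.8, 51.96 and 46.3 (difference 1.15, SE 0.15, adjusted p = 2.5e-05). Lfng, a glycosyltransferase gene that tunes the receptors, was lower with a difference of -1.49 (SE 0.14, adjusted p = 9.5e-07), and the target gene Hes1 was lower while Nrarp did not pass. Of 22 tested Wnt genes 9 were lower and 3 higher with a median of -0.21, which was -0.05 without the library labelled Ift140 knockout flow 3. Lgr4, the R-spondin receptor gene, read 93.8, 105 and 95.2 against 27.5, 36.1 and 35.01, with 127, 132 and 122 in wild-type flow (difference -1.56, SE 0.10, adjusted p = 9.8e-09), and Dkk3, a Dickkopf family gene, was lower with a difference of -1.63 (SE 0.14, adjusted p = 3.2e-07). The receptor gene Fzd7 was lower with a difference of -1.13 (SE 0.11, adjusted p = 1.3e-06). Among 19 TGF-beta and BMP genes 8 were lower and 3 higher, the ligand genes Tgfb2 (difference -2.04, SE 0.26, adjusted p = 2.7e-05) and Bmp4 (difference -1.22, SE 0.11, adjusted p = 1.0e-06) and the activin antagonist gene Fst (difference -0.99, SE 0.08, adjusted p = 3.1e-07) being lower. The median of these 19 was -0.14, and -0.34 with that library left out.

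Genes of the transport machinery itself passed in both directions. Of 14 IFT-A and dynein-2 genes 2 were higher (Ift140 and Wdr60) and 3 were lower (Dync2h1, Ift122 and Dynll1), near the background shares, 0 and 6 with the deposited scaling, and 2 and 5 without the library labelled Ift140 knockout flow 3. Of 32 tested genes of IFT-B, kinesin-2 and the BBSome 6 were lower and 1 higher, with a median of 0.00, and 8 and 1 with that library left out, with a median of -0.11. Kifap3, the kinesin-2 adaptor gene, was lower with a difference of -0.70 (SE 0.14, adjusted p = 0.0011), as were Ift22 (difference -0.72, SE 0.10, adjusted p = 6.2e-05) and Traf3ip1, the gene of IFT54 (difference -0.85, SE 0.18, adjusted p = 0.0017), and Ift20 was higher by 0.59 (SE 0.12, adjusted p = 0.0017). Of 28 transition zone and cilium membrane genes 6 were lower and 1 higher. Both lists stand beside 14.3% lower and 21.2% higher over all genes, and neither was tested against those shares. Ahi1, a transition zone gene of Joubert syndrome, was at 4.44, 2.67 and 3.49 against 1.08, 0.687 and 1.41 scaled TPM, with 7.34, 6.31 and 5.88 in wild-type flow (difference -1.14, SE 0.16, adjusted p = 7.8e-05), and Arl13b, a GTPase gene of the ciliary membrane, at 23.1, 22.4 and 22.8 against 15.3, 16.8 and 14.6 (difference -0.52, SE 0.09, adjusted p = 0.00024). Of the 6 lower genes of IFT-B, kinesin-2 and the BBSome 3 lie on chromosomes 1, 6 and 17, where differences ran lower in general. Kifap3 and Traf3ip1 lie on chromosome 1.

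Genes of polycystic kidney disease and of flow sensing were mixed. Pkhd1, the fibrocystin gene, read 188, 214 and 237 scaled TPM against 116, 115 and 113 (difference -0.88, SE 0.10, adjusted p = 1.2e-05), and Pkd1 43.2, 40.02 and 64.1 against 28.7, 26.7 and 23.9 (difference -0.84, SE 0.16, adjusted p = 0.00075), on chromosomes 1 and 17. Panx1, a channel gene through which cells release ATP, stood at 8.47, 7.05 and 5.63 in the Ift140 knockout and was listed at 0 in all 3 Dync2h1 knockout flow libraries and in all 3 static ones, with 7.48, 7.89 and 8.59 in wild-type flow. Of the 18 tested genes of this list 4 were higher and 5 lower, beside 21.2% and 14.3% over all genes. Of the 5 lower genes 4 lie on chromosomes 1, 6 and 17, where differences ran lower in general. Among collecting duct genes 6 of 11 were lower and 1 (Hoxb7) was higher, with a median of -0.63, and without the library labelled Ift140 knockout flow 3 the counts were the same and the median -0.30. Sgk1, an aldosterone-induced kinase gene that raises sodium uptake, was lower at 69.7, 68.2 and 59.3 against 23.8, 16.8 and 25.7 (difference -1.55, SE 0.18, adjusted p = 9.9e-06), as was Hoxa10 (difference -0.79, SE 0.11, adjusted p = 3.8e-05).

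Stress genes differed by member. Of 22 heat shock genes 7 were lower and 4 higher, with a median of -0.13. With the deposited scaling 11 were lower and 0 higher. Hspa1a, an inducible HSP70 gene (GRCm38, chromosome 17, 34969190 to 34972156), stood at 41.6, 33.9 and 35.7 scaled TPM in the Ift140 knockout and at 11.1, 11.8 and 11.005 in the Dync2h1 knockout, with 4.39, 5.15 and 6.41 in wild-type flow, a difference of -1.62 (SE 0.13, adjusted p = 2.0e-07). Hspa1b, its near-identical neighbour, read 666, 586 and 602 against 373, 371 and 386, with 69.5, 85.3 and 88.3 in wild-type flow, a difference of -0.71 (SE 0.09, adjusted p = 3.4e-05). Both lines were above wild type in both genes, and the Ift140 knockout was the higher of them. How reads were divided between these copies is not known, so their separate levels are uncertain. Hspb8, a small heat shock protein gene, was lower with a difference of -1.27 (SE 0.10, adjusted p = 1.3e-07).

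The promoter stretches of the HSP70 pair (chr17:34972157-34972306, minus strand, and chr17:34959239-34959388, minus strand) are shown to give their likeness. Capitals mark GAANNTTC, the core of the heat shock element, which begins 104 bases before the start in each.
Hspa1a: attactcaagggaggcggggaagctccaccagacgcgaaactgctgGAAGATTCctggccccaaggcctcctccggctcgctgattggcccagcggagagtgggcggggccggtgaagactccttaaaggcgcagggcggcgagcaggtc
Hspa1b: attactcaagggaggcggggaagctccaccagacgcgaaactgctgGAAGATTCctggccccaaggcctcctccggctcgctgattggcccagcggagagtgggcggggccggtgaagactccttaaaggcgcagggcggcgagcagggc
The stretches differ at 1 of 150 positions. The core was in 6.69% of all promoters over 250 bases and, with each gene taken once, in 7.73% of genes. It was in 7 of the 17 tested heat shock genes with an entry.

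Among the genes of endoplasmic reticulum and amino acid stress, 7 of 23 were higher and 9 lower. The higher genes were those of the ATF4 branch (Atf4, Trib3, Asns, Psat1, Phgdh, Ddit4 and Ppp1r15a), and the lower genes were genes of chaperones and of the secretory stress response (Hspa5, Hsp90b1, Calr, Pdia4, Herpud1, Xbp1, Edem1, Creld2 and Manf). Ddit4, an inhibitor gene of mTORC1, read 22.4, 28.4 and 31.4 scaled TPM against 70.3, 58.97 and 62.4 (difference 1.202, SE 0.16, adjusted p = 2.9e-05), Trib3 36.5, 32.1 and 27.2 against 62.8, 56.96 and 56.3 (difference 0.87, SE 0.12, adjusted p = 7.1e-05) and Edem1 53.8, 59.4 and 49.2 against 33.6, 32.2 and 31.96 (difference -0.71, SE 0.10, adjusted p = 5.7e-05). With the deposited scaling 4 were higher and 12 lower, and without the library labelled Ift140 knockout flow 3 6 and 11. Of 19 p53 target genes 10 were higher and 1 was lower with a median of 0.33, and 4 and 1 with the deposited scaling. Perp, a desmosome gene, was higher by 1.08 (SE 0.09, adjusted p = 3.1e-07) and Phlda3 lower with a difference of -0.90 (SE 0.09, adjusted p = 1.7e-06), while the cell cycle inhibitor gene Cdkn1a did not pass.

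Proliferation genes depended on the scaling. Of 30 S phase genes 6 were higher and 3 lower, with a median of 0.03. Of 25 mitosis genes 8 were higher and 2 lower, with a median of 0.21, beside 0.07 over all genes. With the deposited scaling the S phase counts were 1 higher and 8 lower and the mitosis counts 1 higher and 3 lower. Without the library labelled Ift140 knockout flow 3 they were 2 and 5 for S phase and 4 and 1 for mitosis. Cdkn1c, the gene of the inhibitor p57, was higher at 2.01, 1.16 and 1.3004 against 5.07, 5.53 and 5.36 scaled TPM (difference 1.36, SE 0.15, adjusted p = 4.8e-06), and Cdkn2c, that of p18, was lower with a difference of -0.71 (SE 0.11, adjusted p = 0.00014). Of 29 hypoxia and glycolysis genes 11 were higher and 5 lower, or 5 and 6 with the deposited scaling. Among them the glucose carrier gene Slc2a1 was higher by 0.65 (SE 0.08, adjusted p = 1.1e-05) and the carbonic anhydrase gene Car12 lower with a difference of -1.49 (SE 0.22, adjusted p = 0.00011). Of 25 cholesterol synthesis genes 3 were higher and 8 lower, or 1 and 13 with that library left out, Sqle, the squalene epoxidase gene, differing by -0.59 (SE 0.08, adjusted p = 4.0e-05). Of 14 fatty acid synthesis genes 5 were lower (Scd1, Scd2, Fads1, Fads2 and Srebf1) and 0 higher. Of 29 immediate early genes 10 were higher and 4 lower, 5 and 5 with the deposited scaling, and 8 and 3 with that library left out. Of these, Fos, Egr1, Atf3 and Myc did not pass.

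Transcripts of the mitochondrial genome were lower in the Dync2h1 knockout. Their share of all TPM was 0.2003% to 0.2202% in its flow libraries and 0.286% to 0.371% in those of the Ift140 knockout, and the highest value was that of the library labelled Ift140 knockout flow 3. Of 11 tested genes 8 were lower and 0 higher, with a median of -0.87, or 7 with a median of -0.72 without that library. mt-Nd1, a subunit gene of complex I, read 99.9, 90.8 and 140.0 scaled TPM against 39.8, 38.1 and 41.2, with 84.1, 68.3 and 69.3 in wild-type flow, a difference of -1.43 (SE 0.19, adjusted p = 4.1e-05).

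Markers of other kidney and stromal cells were read in the same libraries, and their part in the results was not tested. Of 14 fibroblast markers 11 were under 1 TPM in all 6 libraries, Lum and Dpt were at 0, and Acta2 led the sum, which ran from 20.8 to 23.1 scaled TPM in the Ift140 knockout and from 1.37 to 1.75 in the Dync2h1 knockout. Of 16 proximal tubule markers 9 were under 1 TPM in all 6, Slc34a1, Slc22a6, Slc22a8, Miox, Kap and Hnf4a were at 0, and Lrp2 led the sum, at 78.6 to 120.7 against 18.9 to 23.3. Of 15 endothelial markers 13 were under 1 TPM in all 6 (Erg, Cldn5 and Sox17 at 0), with sums of 18.6 to 23.8 against 14.5 to 26.5. Of 15 leukocyte markers 11 were under 1 TPM in all 6 (Adgre1, Cd3e, Cd3g, Tyrobp and Laptm5 at 0), with sums of 17.9 to 25.3 against 19.4 to 26.0. Of the 3 leukocyte markers tested 1 was higher, Cd14, the gene of a lipopolysaccharide co-receptor, at 4.67, 4.51 and 3.92 against 5.93, 6.96 and 6.76 scaled TPM (difference 0.49, SE 0.12, adjusted p = 0.0048), and it did not pass with the deposited scaling (adjusted p = 0.079).

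A comparison of the same lines in static culture takes its group means from other libraries than the flow comparison. Both comparisons share the estimate of the spread and the genes tested, which were filtered on the flow libraries, so they are not independent tests. In static culture 3468 genes (23% of those tested) passed, of which 2660 also passed under flow in the same direction. That is 49.8% of the genes called under flow and 76.7% of those called in static culture, and 6 genes passed in opposite directions. Of the 936 genes that differed at least 2-fold under flow, 680 (72.6%) passed in the same direction in static culture. Across genes, which are not independent replicates, the differences had a Pearson correlation of 0.78. Of the leading genes, 13 of the 15 higher and 13 of the 15 lower ones also passed in static culture, for example Col4a1 at -5.31, Igfbp2 at -6.18, Vim at -5.26 and Nqo1 at 3.30. The 4 that did not pass there were the small RNA genes Mir5117, Mir3083 and Mir1843b and the clone-named CAAA01205117.2.

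**Figure D3:**
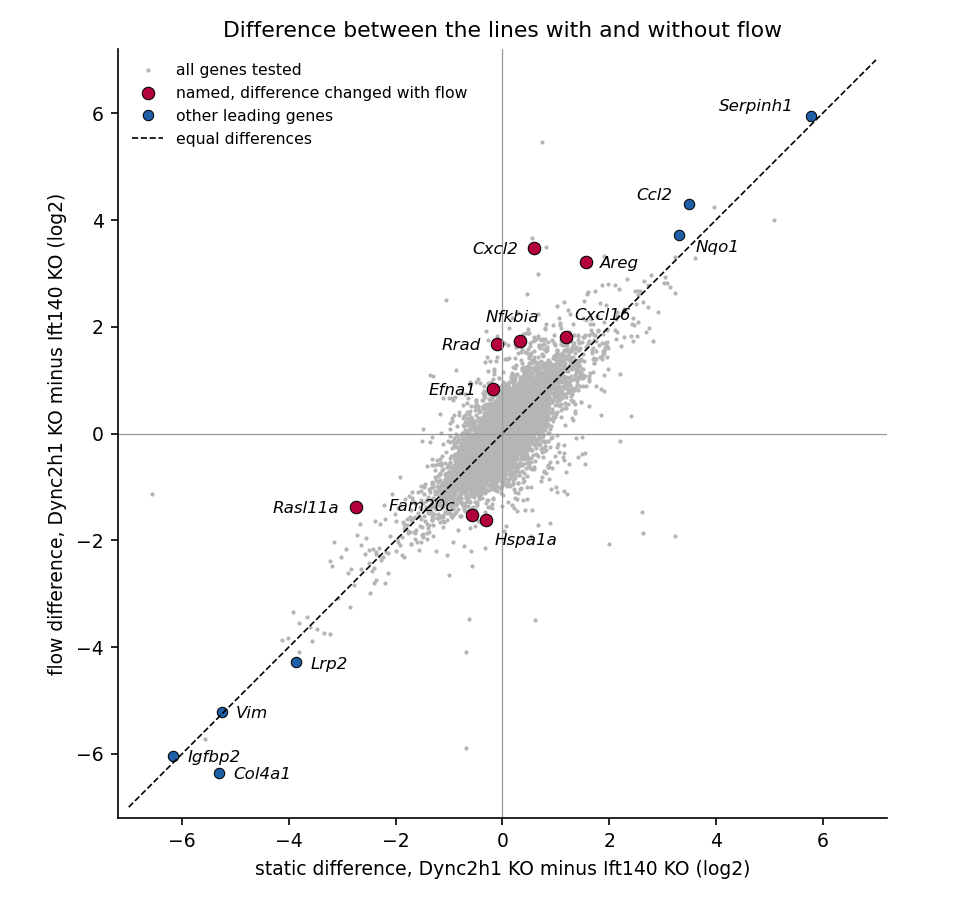
Difference between the lines under flow (vertical axis) against that in static culture (horizontal axis), both as Dync2h1 knockout minus Ift140 knockout in log2(scaled TPM + 1), with 1 point for each of the 15087 genes. Serpinh1, Igfbp2 and Vim lie near the line of equal differences. Col4a1 lies below it, at -6.36 against -5.31 in static culture, a change of -1.05 that did not pass in limma (adjusted p = 0.15). Cxcl2, Rrad and Nfkbia lie above it, with flow differences of 3.48, 1.69 and 1.73 against 0.60, -0.10 and 0.33 in static culture.

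Whether a difference between the lines itself changed with flow was tested as the flow difference minus the static difference. It passed for 15 genes (0.0994% of those tested), 11 upward (0.0729%) and 4 downward (0.0265%). Without the library labelled Ift140 knockout flow 3 it passed for 23 (0.152%), of which 12 were among the 15, or 80% of the former list and 52.2% of the latter. The count ran from 1 to 126 over the other settings run, so membership of this set depended on the processing, and 1375 genes had an unadjusted p under 0.05. The 9 named genes among the 15 are described here.

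Rrad, the gene of a small GTPase that restrains calcium channels, stood at 28.7, 24.97 and 25.8 scaled TPM in the static and 30.4, 34.2 and 25.01 in the flow libraries of the Ift140 knockout. In the Dync2h1 knockout it went from 24.8, 25.4 and 23.7 to 101, 97.7 and 94.6, and in wild type from 28.2, 26.99 and 30.4 to 33.1, 36.7 and 29.9. Only the Dync2h1 knockout flow libraries stood apart from the other 15, and the change in the difference was 1.78 (SE 0.15, adjusted p = 3.2e-05). Leaving out the library labelled Ift140 knockout flow 3 gave 1.67 (adjusted p = 1.9e-05). It passed in every other setting run. Cxcl2 showed the same layout, at 0.254, 0.311 and 0.374 and 1.03, 1.25 and 0.572 in the Ift140 knockout, 0.81004, 1.12 and 1.06 and 26.2, 20.4 and 16.2 in the Dync2h1 knockout and 0.396, 0.298 and 0.837 and 1.19, 0.719 and 1.35 in wild type. The change was 2.88 (SE 0.28, adjusted p = 0.00016), and its call was lost with a pseudocount of 0.1 (adjusted p = 0.072).

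Nfkbia stood at 42.98, 36.6 and 33.9 scaled TPM in static and 30.1, 26.6 and 20.5 in flow libraries of the Ift140 knockout, where the flow libraries were the lower ones. In the Dync2h1 knockout it stood at 43.7, 53.5 and 46.4 and 104, 78.9 and 78.96, where they were the higher ones. The change was 1.40 (SE 0.22, adjusted p = 0.026). Cxcl16 was already higher in the Dync2h1 knockout in static culture, at 82.02, 84.2 and 79.4 against 33.2, 35.1 and 37.6, and the difference widened by 0.62 (SE 0.10, adjusted p = 0.027) under flow. Areg was low in static culture in both lines, at 0.112, 0.466 and 0.9995 and 4.27, 3.64 and 2.43, and its change of 1.65 (SE 0.30, adjusted p = 0.049) was not kept without the library labelled Ift140 knockout flow 3, at 1.61 (adjusted p = 0.081). At such static levels the 1 added before the log shrinks the difference, so the size of this change depends on it. With 0.1 added instead, Areg did not pass. Efna1, an ephrin ligand gene, had lower values under flow than in static culture in each line, at 17.5, 17.4 and 12.3 against 45.1, 40.96 and 48.7 in the Ift140 knockout and 27.3, 27.2 and 31.3 against 38.5, 39.4 and 40.7 in the Dync2h1 knockout, with a change of 1.01 (SE 0.16, adjusted p = 0.027). Rasl11a, a Ras-like gene, had a smaller difference under flow than in static culture, where it stood at 25.2, 26.999 and 23.6 against 2.71, 3.52 and 2.55, a change of 1.38 (SE 0.25, adjusted p = 0.047) that was lost without the library labelled Ift140 knockout flow 3 (adjusted p = 0.077).

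Hspa1a and Fam20c changed in the other direction. Hspa1a was near 1 scaled TPM in static culture in both lines (0.966, 0.904 and 1.15 in the Ift140 knockout and 0.512, 0.734 and 0.647 in the Dync2h1 knockout), and the lines parted under flow, by a change of -1.32 (SE 0.19, adjusted p = 0.0096). Its copy Hspa1b, with higher static levels, did not pass this test, at -0.23 (SE 0.13, adjusted p = 0.61). Fam20c, the gene of a kinase of secreted proteins, stood at 26.997, 26.3 and 23.9 and 29.5, 27.1 and 25.2 in static and flow libraries of the Ift140 knockout and at 14.6, 16.4 and 20.4 and 7.53, 10.6 and 8.503 in the Dync2h1 knockout, a change of -0.96 (SE 0.17, adjusted p = 0.046). With the fit restricted to the 4 groups of this test, 4 genes passed in all, and of the named genes Nfkbia (adjusted p = 0.12), Cxcl16 (0.19), Areg (0.20), Efna1 (0.17), Rasl11a (0.17) and Fam20c (0.31) did not. Cxcl16 also missed the threshold with the deposited scaling (0.40), and with a pseudocount of 0.1 only Rrad of the named genes passed.

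**Figure D4:**
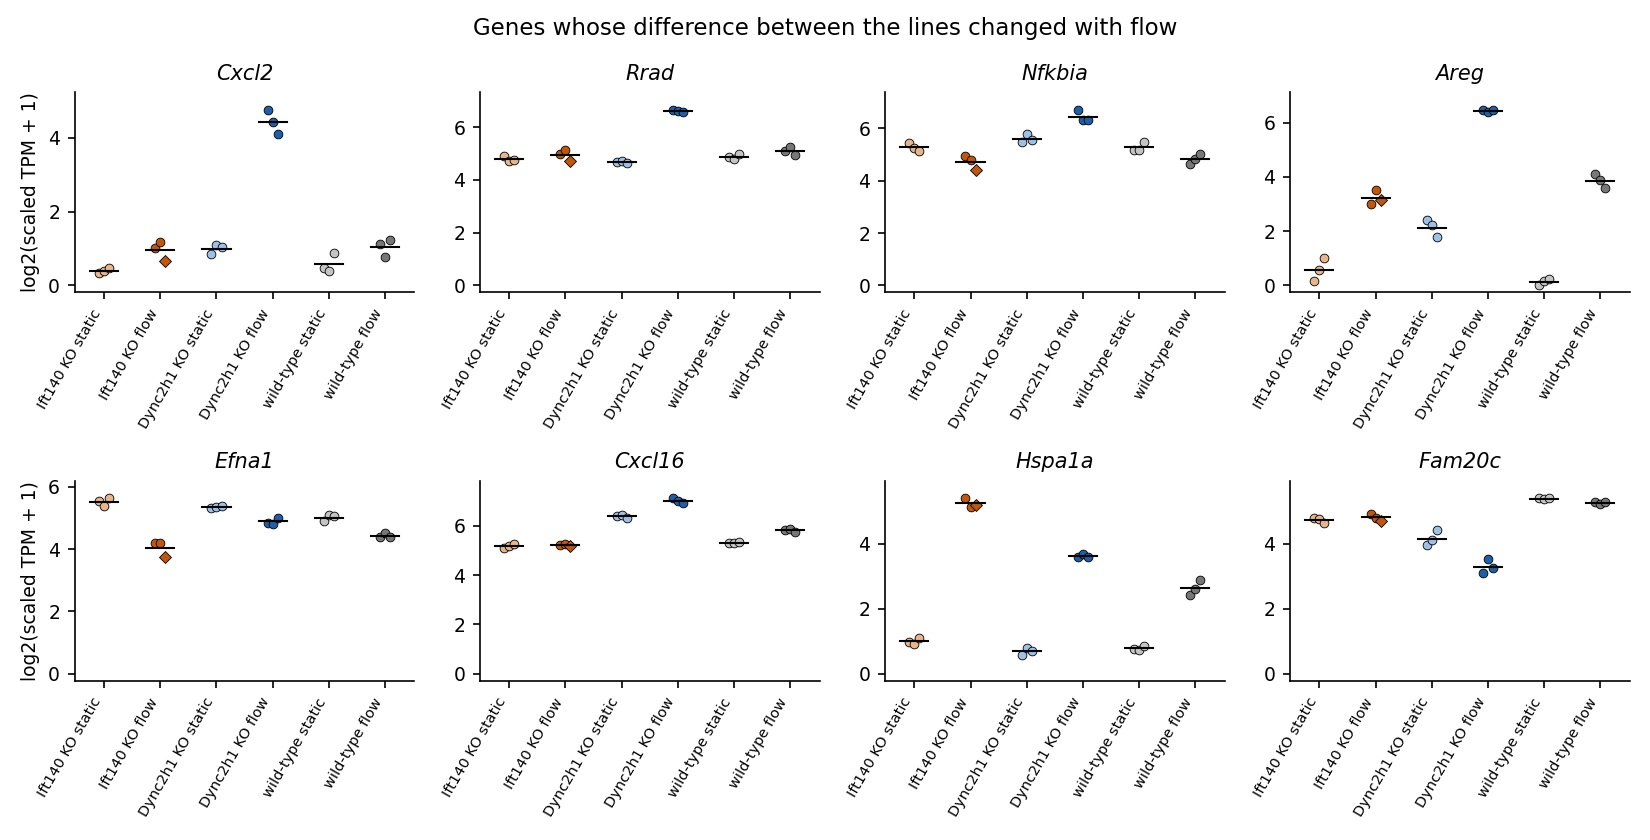
Levels of 8 named genes whose difference between the knockout lines changed with flow, as log2(scaled TPM + 1), with 1 point per library, a bar at the mean of each group of 3 and the library labelled Ift140 knockout flow 3 as a diamond. The Dync2h1 knockout flow libraries stand above the other groups in Cxcl2, Rrad, Nfkbia, Areg and Cxcl16, and the Ift140 knockout flow libraries stand highest in Hspa1a.

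The differences were not spread evenly over the genome. Over genes with a mean of at least 5 scaled TPM, the median flow difference was -0.24 on chromosome 1 (679 genes), -0.24 on chromosome 6 (530 genes) and -0.29 on chromosome 17 (544 genes), and -0.05 on chromosome 5. On the 16 other chromosomes it lay between 0.11 and 0.25. On chromosomes 1, 6 and 17, 38.7%, 36.6% and 40.3% of the genes were lower in the Dync2h1 knockout, against 4.28% to 12.6% on those 16. Chromosome 5 lay between, with 22.3% of its 780 genes lower. The static libraries gave -0.32, -0.29 and -0.38, with 0.04 to 0.20 on the 16 others. With the deposited scaling the flow medians were -0.44, -0.45 and -0.50, against -0.10 to 0.05 on those 16. Without the library labelled Ift140 knockout flow 3 the flow medians were -0.30, -0.28 and -0.34.

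The wild-type flow libraries place these shifts in different lines. For chromosomes 1 and 6, the Dync2h1 knockout minus wild type gave medians of -0.35 and -0.31 and the Ift140 knockout minus wild type -0.04 and -0.05. For chromosome 17, which carries Ift140, the Dync2h1 knockout minus wild type gave 0.07 and the Ift140 knockout minus wild type 0.35. For chromosome 5 these medians were -0.15 and -0.09. On the 16 other chromosomes the Dync2h1 knockout minus wild type gave 0.03 to 0.22, and the Ift140 knockout minus wild type -0.12 to 0.07. On chromosome 5 the Dync2h1 knockout median thus lay below the range of the others, and the Ift140 knockout median lay within it. Of the lower protein-coding genes described above, Igfbp2, Phlda3, Tgfb2, Kifap3, Traf3ip1, Fzd7, Pkhd1, Twist2, Fn1, Col4a4 and Lamc1 lie on chromosome 1, Camk1, Edem1, Pdia4, Zyx, Ift122, Smo and Hoxa10 on chromosome 6, and Hspa1a, Hspa1b, Crim1, Srf, Tapbp, Pkd1 and Lama1 on chromosome 17. Lower genes on chromosome 5 include Aldh2, Fras1, Hspb8, Fam20c and Rasl11a. Genes that were higher lie on these chromosomes too, among them Cxcl2, Areg, Ccl20, Lamb3, Tap1, Psmb9 and H2-T23. The part of the chromosome-wide shift in any of them was not tested.

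**Figure D5:**
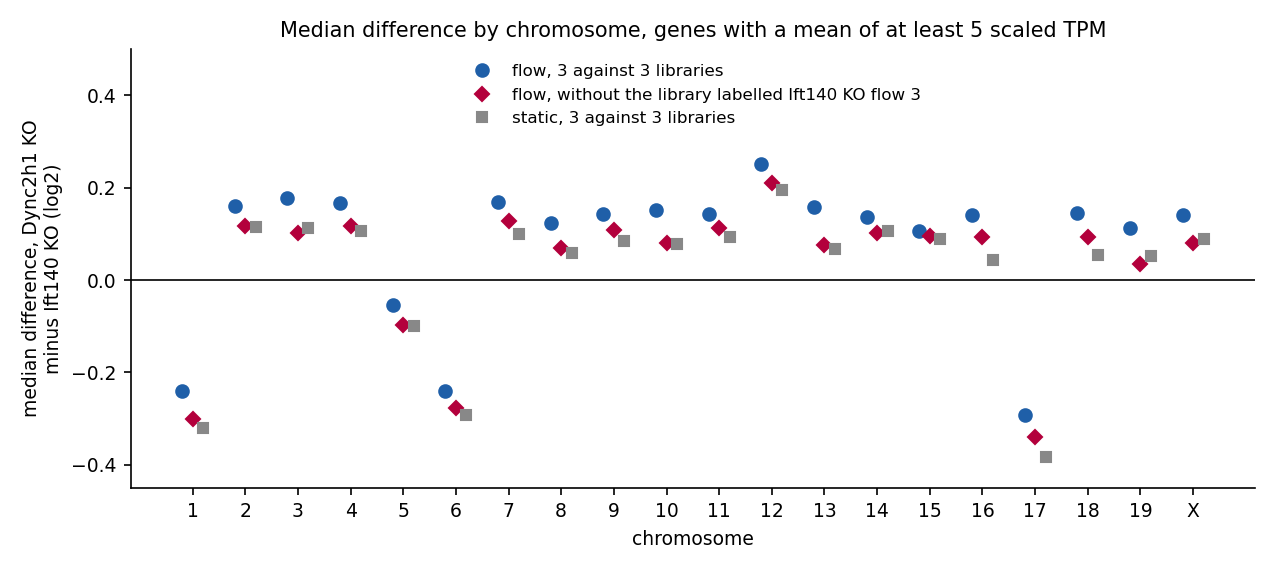
Median difference between the lines (log2, Dync2h1 knockout minus Ift140 knockout) on each chromosome, for genes with a mean of at least 5 scaled TPM, under flow with all 6 libraries (circles), under flow without the library labelled Ift140 knockout flow 3 (diamonds) and in static culture (squares). Chromosomes 1, 6 and 17 lie between -0.24 and -0.38, chromosome 5 lies between -0.05 and -0.10, and the 16 others lie above 0 in each series.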

How the data were processed

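RNA-seq of 18 libraries in 6 groups of 3 was used as deposited. The authors' deposited signal per gene is TPM, and a row holding the column total was left out. FastQC 0.11.5, Bowtie2 2.1.0, RSEM 1.2.31 and the builds mm10 and GRCm38.p5 are named per the submitters' processing notes. TPM keep no counts, so the depth is unknown and no count test was possible.

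Libraries were rescaled by a trimmed mean of log ratios (30% of ratios and 5% of abundances trimmed), and log2(scaled TPM + 1) was fitted with limma 3.58.1 in R 4.3.3 over all 18 libraries, with 6 group means, 12 residual degrees of freedom and a mean-variance trend. Genes at 1 TPM or more in 3 of the 6 knockout flow libraries were tested, 15087 of 49845, with Benjamini-Hochberg adjustment over all of them. With 3 libraries a group, the smallest p an exact permutation test allows is 0.1, so none was used. The code was tested on simulated data.

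Named genes are the 15 largest differences in each direction that passed, had a mean of at least 5 scaled TPM in the higher group and did not overlap, up to 4 members of each of 39 lists by smallest p, up to 6 genes in each direction that changed with flow, and both targeted genes. Other list members are named for their counts only, after their values were seen. A few genes that these rules select are not reported here. Members and lists were chosen with earlier results of these data known. Coordinates are from GENCODE on GRCm38, which matched 14806 of the tested genes, and promoters from RefSeq on GRCm38.p6. Alternatives were other scalings, filters, pseudocounts, fits, weights, thresholds, a replicate block and leaving out each library.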

Additional observations from a re-analysis of the deposited data

Results flagged for a closer look

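For 9 of the named genes the difference between the lines under flow differed from that in static culture in limma with adjustment over all genes tested, n = 3 libraries in each of the 4 groups. Cxcl2 was set apart by 2.88 on the log2 scale (adjusted p = 0.00016) and Rrad by 1.78 (adjusted p = 3.2e-05), both with their highest levels in the Dync2h1 knockout flow libraries. Nfkbia was set apart by 1.40 (adjusted p = 0.026), Areg by 1.65 (adjusted p = 0.049), Rasl11a by 1.38 (adjusted p = 0.047), Efna1 by 1.01 (adjusted p = 0.027) and Cxcl16 by 0.62 (adjusted p = 0.027). The difference was smaller or more negative under flow for Hspa1a, by -1.32 (adjusted p = 0.0096), and for Fam20c, by -0.96 (adjusted p = 0.046). Areg and Rasl11a missed the threshold without the library labelled Ift140 knockout flow 3, with adjusted p of 0.081 and 0.077. With a pseudocount of 0.1 only Rrad of these 9 genes passed.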

How the results depend on the processing

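Of the 156 named genes, 129 passed with the same sign in all 21 alternative settings of the flow difference, 27 lost the call in at least 1, and none reversed. Most of these genes were chosen by size or p in the main fit, so these counts do not speak for all genes. With the deposited scaling 147 passed, and with only the 6 libraries in the fit 135. The counts of genes moved more. With the deposited scaling 1574 genes were higher and 3388 lower. With the fit restricted to the groups compared, 1524 were higher and 1096 lower, and 4 genes changed with flow. At an adjusted p under 0.01 the counts were 1985 and 1295, with 1989 in static culture and 4 that changed with flow. The number of genes that changed with flow, 15, was 1 with a pseudocount of 0.1, 28 with a pseudocount of 5 and 126 with library weights. Of alternatives added after seeing the data, leaving the library labelled Ift140 knockout flow 3 out of this restricted fit gave 1943 higher genes and 2 that changed with flow. A pseudocount of 0.1 without that library gave 15 genes that changed with flow, against 1 with it. Protein-coding genes only gave 16. Leaving out 1 library at a time gave 2446 to 3690 higher and 1669 to 2269 lower genes, 2547 to 2934 in static culture and 4 to 23 that changed with flow, the fewest without Dync2h1 knockout static 3 and the most without the library labelled Ift140 knockout flow 3. Every left-out library other than Ift140 knockout flow 2 and Dync2h1 knockout flow 3 moved this last count by over 1.5 times. The cause of these moves was not tested. TPM keep no depth, so precision at low levels is unknown.

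The replicate number as a block gave 5 genes that changed with flow and moved no other count by over 1.5 times. The deviations of same-numbered libraries of the lines correlated at 0.03, -0.14 and -0.11 under flow and at 0.14, -0.09 and 0.16 in static culture, and not every library correlated best with its own number, so the libraries share only a number.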

Other observations

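Some genes were near 0 in the flow libraries of 1 knockout line and well above it in those of the other. By a rule chosen after values were seen, a gene counted here if it was at or under 0.5 scaled TPM in every flow library of one line and at or above 5 in every flow library of the other. In this way 7 genes were found only in the flow libraries of the Dync2h1 knockout and 7 only in those of the Ift140 knockout. Beside Nipal2, the former include Syk, the gene of a tyrosine kinase of immune receptor signalling, at 0.0894, 0.0106 and 0.0166 scaled TPM in the Ift140 knockout, 5.64, 5.47 and 5.76 in the Dync2h1 knockout and 2.61, 2.70 and 3.11 in wild-type flow. They also include Il23a, the gene of the p19 subunit of interleukin 23, at 0.248, 0.201 and 0.489 scaled TPM in the Ift140 knockout, 8.70, 7.83 and 7.84 in the Dync2h1 knockout and 0.502, 1.34 and 0.613 in wild-type flow. The other 3, Gm12671, Gm24018 and Gm44367, are a predicted pseudogene and predicted short RNA genes. Of these 7, 5 stood on the same side in static culture and 3 were at 1 or more in all wild-type flow libraries. The rule did not use static libraries, where Gm24018 stood at 5.80, 0 and 7.75 scaled TPM in the Ift140 knockout. Nipal2 reached 1.04 and Il23a 0.826 there.

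The 7 genes found only in the Ift140 knockout flow libraries all stood on the same side in static culture. All were at 1 or more in every wild-type flow library, so the low values are those of the Dync2h1 knockout. In static culture Bmp6 reached 0.553 in the Dync2h1 knockout, just over the limit. Beside Igfbp2 and Panx1 they include Cd34, the gene of a surface sialomucin, at 12.6, 8.40 and 7.91 scaled TPM in the Ift140 knockout, 0.409, 0.182 and 0.133 in the Dync2h1 knockout and 20.7, 17.2 and 17.9 in wild-type flow. Bmp6, a ligand gene of the BMP pathway, was at 7.51, 9.03 and 9.003 scaled TPM in the Ift140 knockout, 0.489, 0.376 and 0.221 in the Dync2h1 knockout and 4.57, 3.86 and 3.16 in wild-type flow. Ociad2, a gene of a mitochondrial protein, was at 9.14, 17.3 and 8.27 scaled TPM in the Ift140 knockout, 0.114, 0.161 and 0.0554 in the Dync2h1 knockout and 14.8, 14.4 and 11.8 in wild-type flow. Bend4 was at 7.65, 7.91 and 10.2 scaled TPM in the Ift140 knockout, 0, 0.0107 and 0.0111 in the Dync2h1 knockout and 10.3, 11.8 and 10.2 in wild-type flow. Tmlhe, the gene of the first enzyme of carnitine synthesis, was at 10.3, 9.75 and 8.31 scaled TPM in the Ift140 knockout, 0, 0.0322 and 0.0443 in the Dync2h1 knockout and 11.001, 9.19 and 12.3 in wild-type flow.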
